A study of Rattus norvegicus with 6 samples.

Results

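The genes described here encode collagen receptors that are not integrins: Lair1, Ddr1, Ddr2, Mrc2 and Gp6, 5 genes in all. Their transcripts were taken from the table of assembled linear transcripts by an exact match of the gene name. Of the 5 names, 4 had an entry, with 16 of the 70376 transcripts and 4 of the 21655 gene names in the table. Gp6 had no entry under its name and was not analysed here. RNA came from lung tissue of Sprague–Dawley rats, 7 weeks old at the start, taken on day 28 after a single intratracheal instillation. The 3 control rats were given saline, and the 3 rats of the PF (pulmonary fibrosis) model were given bleomycin at 7 mg/kg. One library depleted of rRNA was made per rat, so each replicate is a separate animal. Bleomycin injures the lung epithelium, and a single dose is a model of fibrosis after an acute injury.

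Fibrillar collagen is the main protein of scar tissue, and cells sense it through integrins and through the receptors described here. LAIR-1, the product of Lair1, is an inhibitory receptor of leukocytes that binds collagen and passes its signal through ITIM motifs and the phosphatases SHP-1 and SHP-2. DDR1 and DDR2 are receptor tyrosine kinases that collagen itself activates, the former found mostly on epithelium and the latter mostly on fibroblasts and other mesenchymal cells. Endo180, the product of Mrc2, takes up collagen fragments for breakdown in lysosomes, and GPVI, the product of Gp6, activates platelets on collagen.

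Lung markers were high in every library. The 10 markers of lung epithelium summed to between 10572 and 12228 FPKM (fragments per kilobase of transcript, scaled to the size of the library) in control samples and to between 9979 and 12985 FPKM in PF model samples. The libraries held between 35778631 and 41112682 estimated reads. PF model 3 stood apart in heart muscle RNA. Its 6 heart markers summed to 27.9 FPKM against at most 11.5 FPKM in any control sample, and Myh6, the cardiac myosin heavy chain, was at 5.11 FPKM there, at 0.0339 FPKM in PF model 2 and at 0 in the other 4 libraries. Values without PF model 3 are therefore given beside the member genes.

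Lair1 was represented by 1 annotated transcript, ENSRNOT00000036413, with 8 exons and 1148 bases at chr1:73837944-73868695 on the plus strand of the rat genome build used by the authors, which the sources used here do not name. It was among the genes that the study picked from these libraries for qRT-PCR, so its direction here is not independent of that choice. The paper states that the picked RNAs had a similar pattern by qRT-PCR, which was run on the RNA used for sequencing. The primer pair of that assay is shown in the 5′ to 3′ direction, since these oligos set what the assay reads. The primers were not placed on the transcript here.

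Lair1-Fw: gccaccaaatgcttctct
Lair1-Rv: gtctttccaagggctgatac

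The RefSeq promoter windows of the members (assembly GRCr8, 250 bases before to 50 bases after a gene start) are shown for Lair1 and Ddr1, which differ most in CG content among the members with a window, with each CG dinucleotide in capitals. CG was searched as these 2 letters, which read the same on both strands. Gp6 also has a window, and Ddr2 and Mrc2 are named only. The Lair1 window, on the plus strand at chr1:79229661-79229960, holds 1 CG and 46% G and C.

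Lair1 promoter: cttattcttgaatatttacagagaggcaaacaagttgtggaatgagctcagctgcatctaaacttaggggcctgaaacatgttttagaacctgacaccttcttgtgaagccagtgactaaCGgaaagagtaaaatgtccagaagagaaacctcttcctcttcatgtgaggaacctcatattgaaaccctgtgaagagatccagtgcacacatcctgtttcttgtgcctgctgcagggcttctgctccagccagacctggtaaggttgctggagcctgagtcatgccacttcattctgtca

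The first Ddr1 window, on the plus strand at chr20:3048737-3049036, holds 10 CG and the second, at chr20:3050156-3050455, holds 40 CG and 78.7% G and C.

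Ddr1 promoter 1: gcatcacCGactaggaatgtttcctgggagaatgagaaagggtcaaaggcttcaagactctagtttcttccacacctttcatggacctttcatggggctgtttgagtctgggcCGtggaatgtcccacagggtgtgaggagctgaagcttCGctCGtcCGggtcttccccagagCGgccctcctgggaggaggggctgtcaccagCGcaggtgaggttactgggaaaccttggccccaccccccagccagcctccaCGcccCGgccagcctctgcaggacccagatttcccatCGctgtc
Ddr1 promoter 2: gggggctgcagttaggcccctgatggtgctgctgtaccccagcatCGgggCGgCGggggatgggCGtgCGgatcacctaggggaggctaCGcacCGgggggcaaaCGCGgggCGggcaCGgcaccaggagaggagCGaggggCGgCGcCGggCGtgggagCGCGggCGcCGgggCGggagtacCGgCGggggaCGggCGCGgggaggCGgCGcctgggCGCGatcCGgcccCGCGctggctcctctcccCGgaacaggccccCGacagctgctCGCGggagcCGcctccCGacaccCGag

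Over all 33469 promoters of the RefSeq table the median was 7 CG, 13.6% held as few as the Lair1 window, and 3.24% held as many as the second Ddr1 window or more. The Gp6 window held 1 CG, like that of Lair1. No methylation or binding was measured, so these counts describe the windows only.

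Lair1 was lower in every PF model sample than in any control sample. Its FPKM was 0.295, 0.570 and 0.513 in controls 1 to 3 and 0.0272, 0.262 and 0.181 in PF models 1 to 3. The groups did not overlap, although control 1 lay close above PF model 2. The means were 0.459 ± 0.145 FPKM in control and 0.156 ± 0.119 FPKM in PF model samples (SD, n = 3 each), a ratio of group means of 2.94 in favour of control. Of all 19645 gene names tested, 5.87% likewise had every control sample above every PF model sample.

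The difference passed an unadjusted threshold and failed the adjusted one. On the log2(FPKM + 1) scale, which understates changes of low genes, the difference of PF model minus control was -0.34 (SE 0.11, 95% interval -0.60 to -0.075) by limma. The unadjusted limma p was 0.0194 and the log2 ratio of the group means -1.55, so that Lair1 met the call rule (unadjusted p no higher than 0.05, means differing by 1 or more log2 units). After Benjamini-Hochberg adjustment over all gene names, limma gave an adjusted p of 0.933. An exact two-sided permutation test gave p = 0.1, the smallest that 3 rats against 3 allow. By the same rule 298 gene names were called, or 1.52% of those tested, of which 168 (0.855% of those tested) were lower in PF model samples. Lower calls made up 56.4% of all calls, and 41.8% when values were rescaled to TPM, which gives every library the same total. Only 2 gene names, neither of them a member, had an adjusted p below 0.05.

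These levels rest on few reads. Estimated as coverage times transcript length over a read length of 150 bases, Lair1 had 15.7, 27.9 and 28.8 reads in controls 1 to 3 and 1.51, 13.2 and 9.53 reads in PF models 1 to 3. PF model 1 thus held little more than a single read. The mean level of Lair1 stood at percentile 24.2 of the gene names, while the other 3 members had between 914 and 5294 estimated reads per library. The call was lost without control 2 (-0.28, limma p of 0.0624), without control 3 (-0.31, limma p of 0.0574) and without PF model 1 (-0.25, limma p of 0.0618), and was kept without PF model 3 (-0.35, limma p of 0.0396). In lung tissue, fewer cells that carry a transcript and less of it per cell cannot be told apart.

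**Figure D1:**
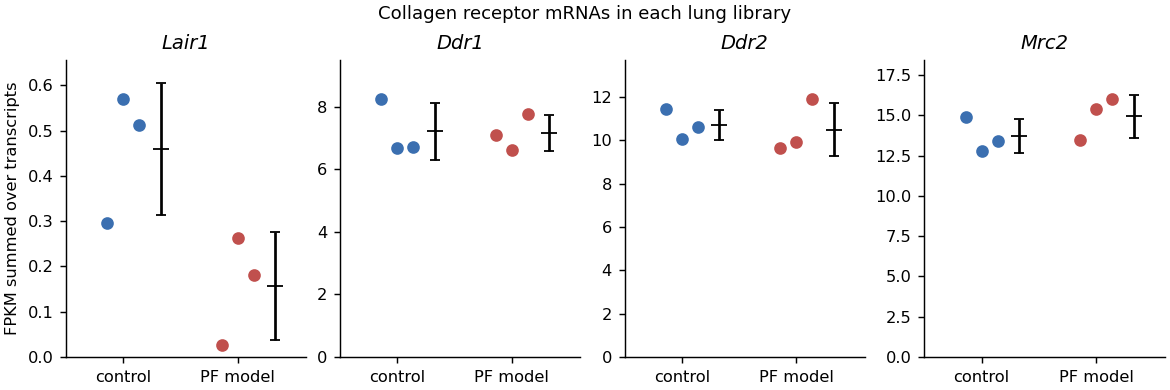
FPKM summed over transcripts (vertical axes, each from 0) for the 4 measured members in the 3 control (blue) and 3 PF model (red) libraries, with the mean and SD in black beside the points. Lair1 lies below 0.6 FPKM with no overlap between groups, and the groups of Ddr1, Ddr2 and Mrc2 overlap.

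Leukocytes are the cells in which LAIR-1 acts, and the sums of their markers overlapped between the groups. Of the 10 leukocyte markers, 8 were found (Itgam and Marco have no entry), none was at 0 in all libraries, and the 8 summed to between 96.5 and 114.5 FPKM in control and to between 78.0 and 111.8 FPKM in PF model samples. Ptprc, which encodes the pan-leukocyte protein CD45, was at 27.4, 36.3 and 40.0 FPKM in controls 1 to 3 and at 30.04, 29.7 and 23.3 FPKM in PF models 1 to 3. Its controls 2 and 3 were the highest, as for Lair1, while control 1 lay below PF models 1 and 2. Cd68, a macrophage marker, was at 1.30 FPKM in control 3 and at 1.21 FPKM in PF model 2 and between 20.7 and 22.8 FPKM in the others. The 7 markers without Cd68, left out after its values were seen, summed to 77.1, 93.8 and 95.2 FPKM in controls 1 to 3 and to 89.5, 76.8 and 81.0 FPKM in PF models 1 to 3.

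The groups also did not overlap in Lair1 per unit of Ptprc. Lair1 came to 10.8, 15.7 and 12.8 per 1000 Ptprc FPKM in controls 1 to 3 and to 0.905, 8.80 and 7.75 in PF models 1 to 3. The lowest control lay above the highest PF model sample (exact permutation p = 0.1). How many of all gene names would be apart by this ratio was not computed. The value of PF model 1 rests on 1.51 estimated reads, and Ptprc was the only leukocyte marker used as divisor. The cause of the difference was not tested. Of the single leukocyte markers, 1 of 8 had an unadjusted limma p of at most 0.05, as did 965 gene names or 4.91% of all those tested. This was Ncf1, a subunit of the phagocyte NADPH oxidase, at 9.02 ± 0.674 FPKM in control and 12.6 ± 3.203 FPKM in PF model samples (SD, n = 3). It was higher in every PF model sample than in any control sample, as were 947 of all 19645 gene names tested.

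Transcripts of proteins that LAIR-1 works with were at higher FPKM than Lair1 in every library. The list held C1qa, C1qb and C1qc (complement C1q), Sftpd (surfactant protein D), the phosphatases Ptpn6 and Ptpn11 and the kinase Csk. None of the 7 passed the unadjusted limma test in either direction. Their median difference on the log2(FPKM + 1) scale was 0.016, beside -0.0072 over all gene names. Csk was at 23.8 ± 1.31 FPKM in control and 22.4 ± 6.09 FPKM in PF model samples, and Sftpd, itself a collagen-like ligand of LAIR-1, at 21.4 ± 3.40 and 21.6 ± 2.14 FPKM (SD, n = 3). Ptpn6, which encodes SHP-1, was at 17.0 ± 2.34 and 20.8 ± 2.61 FPKM, a log2(FPKM + 1) difference of 0.28 (95% interval -0.034 to 0.59).

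The immune receptor genes Lilra5 and Lilrb3 lie 155697 and 218588 bases from Lair1 on chromosome 1. The nearest gene name, Ttyh1, lies 84816 bases away. Within 250000 bases the tested gene names were Ttyh1, Leng8, Leng9, Cdc42ep5, Lilra5 and Lilrb3, and none of these 6 met the call rule. Lilra5, a leukocyte immunoglobulin-like receptor, was at 4.57, 2.73 and 4.302 FPKM in controls and 3.67, 3.24 and 2.62 FPKM in PF models 1 to 3, with overlapping groups. Leng8 was also lower in all PF model samples, at 43.0 ± 2.45 FPKM in control and 34.7 ± 8.93 FPKM in PF model samples (SD, n = 3), with 24.4 FPKM in PF model 3, and its limma p was 0.132.

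By pattern over the 6 libraries, the gene most like Lair1 among 14320 gene names with a mean of at least 1 FPKM was Itgad, which encodes the integrin αD chain of leukocytes (Pearson r = 0.99 over 6 samples on the log2(FPKM + 1) scale). Itgad was at 6.14, 7.65 and 7.50 FPKM in controls 1 to 3 and at 3.89, 5.24 and 4.97 FPKM in PF models 1 to 3. As for Lair1, control 1 was the lowest control and PF model 1 the lowest sample. Stap2 (r = 0.98) and Klhl2 (r = 0.98) followed, and 20 gene names reached r of 0.95 or more. The r values include the difference between the groups and the libraries' shared scaling, and no p is given.

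**Figure D2:**
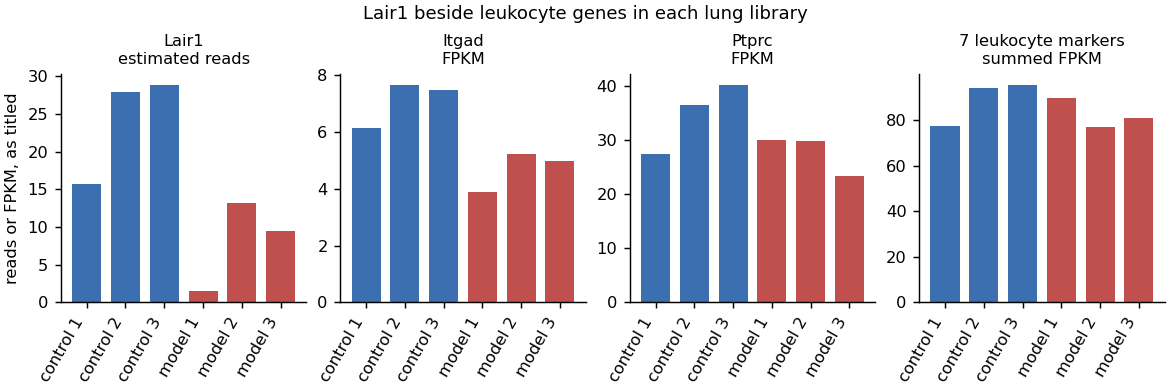
Lair1 in estimated reads beside Itgad, Ptprc and the sum of 7 leukocyte markers in FPKM (vertical axes from 0), one bar per library, control in blue and PF model in red. Lair1 and Itgad do not overlap between groups, while Ptprc and the summed markers do. Itgad was picked for its likeness to Lair1 over these same libraries, so its lack of overlap is not independent.

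Ddr1 showed no detectable difference. Its FPKM, summed over 7 transcripts at chr20:3552929-3575780 on the plus strand, was 8.26, 6.68 and 6.71 in controls 1 to 3 and 7.11, 6.62 and 7.79 in PF models 1 to 3. The groups overlapped throughout, and control 1 was the highest of the 6. The means were 7.22 ± 0.906 and 7.18 ± 0.584 FPKM (SD, n = 3). The log2(FPKM + 1) difference was -0.0042 (95% interval -0.29 to 0.28, adjusted p = 0.9996 by limma), and it was -0.058 without PF model 3, 0.075 after rescaling to TPM and 0.40 with annotated transcripts only.

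Ddr2 also overlapped between the groups. Summed over 3 transcripts at chr13:88311385-88436966 on the minus strand, it was at 11.4, 10.1 and 10.6 FPKM in controls 1 to 3 and at 9.63, 9.94 and 11.9 FPKM in PF models 1 to 3. The highest and the lowest value both belonged to PF model samples. The means were 10.7 ± 0.683 and 10.5 ± 1.24 FPKM (SD, n = 3). The log2(FPKM + 1) difference was -0.029 (95% interval -0.29 to 0.23, adjusted p = 0.991 by limma), -0.12 without PF model 3 and 0.051 after rescaling to TPM.

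Mrc2 was the highest of the members. Its 5 transcripts at chr10:93518561-93581296, 4 of them on the plus strand, summed to 14.9, 12.8 and 13.4 FPKM in controls 1 to 3 and to 13.5, 15.4 and 16.0 FPKM in PF models 1 to 3. PF models 2 and 3 exceeded every control, and PF model 1 lay between controls 3 and 1. The means were 13.7 ± 1.06 and 15.0 ± 1.34 FPKM (SD, n = 3). The log2(FPKM + 1) difference was 0.12 (95% interval -0.12 to 0.36, adjusted p = 0.933 by limma) and 0.068 without PF model 3.

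Levels can be compared between these genes because FPKM is per length. In each of the 6 libraries Mrc2 was above Ddr2, Ddr2 above Ddr1 and Ddr1 above Lair1, and none of these neighbours overlapped over the libraries. Ddr2 was between 1.35 and 1.58 times as high as Ddr1. Mrc2 over Ddr2 was 1.30, 1.27 and 1.26 in controls 1 to 3 and 1.40, 1.55 and 1.35 in PF models 1 to 3. This ratio did not overlap between groups (exact permutation p = 0.1), unlike Ddr2 over Ddr1 (exact permutation p = 0.6) and Mrc2 over Ddr1 (exact permutation p = 0.3). The 4 ratios were chosen after the gene levels had been seen, and with the smallest possible p of 0.1 none could pass an adjustment over them.

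The name Mrc2 covers more than the receptor's mRNA. Of its 5 transcripts, 2 are spliced sense transcripts of 30 exons, 2 lie within an intron on the same strand and 1 lies antisense to the start of the gene. The intronic and antisense transcripts took up 14.3% to 29.1% of the Mrc2 sum, the most in control 3. The sense spliced transcripts alone were at 12.4, 10.8 and 9.51 FPKM in controls 1 to 3 and at 11.5, 11.9 and 13.2 FPKM in PF models 1 to 3. On these values control 3 is the lowest sample, and Mrc2 lies below Ddr2 there. Their log2(FPKM + 1) difference was 0.15 (limma p of 0.219). Their ratio to Ddr2 was 1.09, 1.07 and 0.897 in controls and 1.20, 1.20 and 1.11 in PF models 1 to 3. The groups did not overlap (exact permutation p = 0.1), but PF model 3 lay close above control 1. This ratio shares Ddr2 and most of the Mrc2 sum with the ratio given before, so it is not a separate result.

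The 2 sense transcripts of Mrc2 share their 3′ end and differ at the 5′ end. The assembled one starts at position 93518561 and the annotated one at 93520132, and the antisense transcript, at chr10:93518561-93520134, covers the stretch between these starts. The library kit named in the labels keeps the strand, but whether the estimation used it is not stated, so reads from the sense and antisense transcripts there cannot be told apart. MSTRG.6738.1, an assembled transcript of 7140 bases, was at 6.94, 4.52 and 7.87 FPKM in controls and 6.63, 7.27 and 8.11 FPKM in PF models 1 to 3. The annotated ENSRNOT00000055137, of 5566 bases, was at 5.50, 6.26 and 1.64 FPKM in controls and 4.90, 4.65 and 5.08 FPKM in PF models 1 to 3. The PF model samples lay close together for both, and the controls spread widely, with control 2 low in the first and control 3 low in the second. Their shares of the Mrc2 sum did not differ detectably (exact permutation p = 0.7 and 1).

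In Ddr2 the estimated split between the assembled transcripts differed in 1 library, although both were above 0 in all 6. They overlap over most of their length, and how the estimation divided the reads they share was not tested. The values are therefore estimates and not a measure of isoform use. MSTRG.10337.1 (9829 bases) was at 10.7, 1.67 and 2.77 FPKM in controls 1 to 3 and at 2.72, 1.999 and 0.406 FPKM in PF models 1 to 3. MSTRG.10337.2 (9656 bases) was at 0.0277, 8.40 and 7.28 FPKM in controls and at 6.91, 7.94 and 11.5 FPKM in PF models 1 to 3. The first transcript made up 94.0% of Ddr2 in control 1 and between 3.40% and 28.2% in the other 5 libraries. Both have 18 exons, and their 3′ ends lie 277 bases, their 5′ ends 317 bases and their lengths 173 bases apart. No difference of the shares between the groups was detected (exact permutation p = 0.5 for the first and 0.4 for the second).

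The difference between the group means of the Ddr2 isoforms was smaller without control 1. The log2(FPKM + 1) difference of MSTRG.10337.1 was -0.97 with all libraries (limma p of 0.191) and -0.34 without control 1, and that of MSTRG.10337.2 was 1.16 (limma p of 0.241) and 0.12 without control 1. The sum of both was 10.8 FPKM in control 1, within the range of 9.63 to 11.9 FPKM of the 6 libraries. The annotated ENSRNOT00000003901, of 3742 bases, was at 0.654 and 0.557 FPKM in controls 1 and 3 and at 0 elsewhere. At the 3′ end it is shorter than the assembled transcripts by 5760 and 5483 bases.

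The estimated split of Ddr1 over its transcripts differed from library to library. How the reads that these transcripts share were divided was not tested. ENSRNOT00000089417, an annotated transcript of 3676 bases, was at 2.25, 4.93 and 2.98 FPKM in controls and at 6.17, 1.69 and 7.48 FPKM in PF models 1 to 3. It held between 25.4% and 96.0% of Ddr1 (exact permutation p = 0.5 between groups). MSTRG.21279.3 reached 3.52 FPKM in control 3 and 3.10 FPKM in PF model 2 and stayed at or below 0.0689 FPKM in the others. MSTRG.21279.4 was at 4.92 FPKM in control 1 and at 0 in the other 5 libraries, and ENSRNOT00000083223 reached 1.27 FPKM in PF model 2 only. The 7 transcripts have 6 distinct starts and 6 distinct ends. The share of MSTRG.21279.3 gave an exact permutation p of 1 between the groups. The Ddr1 sum stayed between 6.62 and 8.26 FPKM.

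Of the 16 transcripts, 12 had FPKM above 0 in at least 3 libraries and were tested. The Lair1 transcript was the only one that met the call rule (limma p of 0.0289, adjusted p = 0.945), where 2.98% of all 64867 transcripts tested met it. Lair1 has a single transcript, so its values are those of the gene level and only the fit differs. In this fit the call was lost without control 2, control 3 or PF model 1, as at the gene level, and also without PF model 3 (-0.35, limma p of 0.0578).

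**Figure D3:**
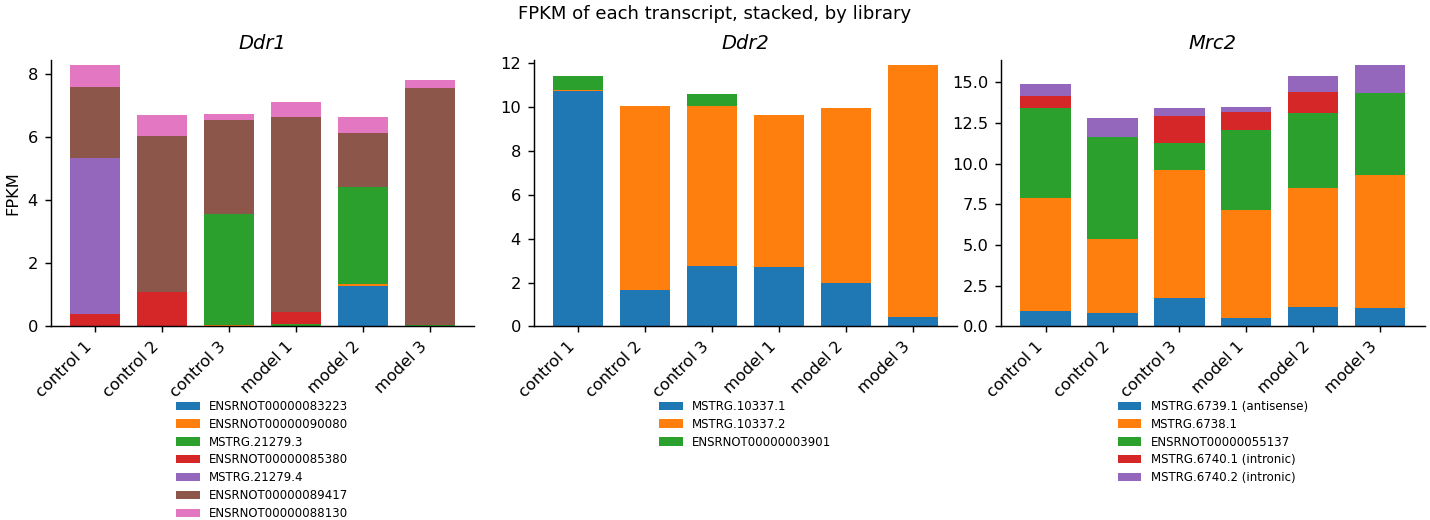
FPKM of every transcript of Ddr1, Ddr2 and Mrc2, stacked by library (vertical axes from 0, one bar per library). The height of the bars changes little, while the colours that fill them differ between libraries, with MSTRG.10337.1 filling Ddr2 in control 1 only.

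By pattern over the 6 libraries on the log2(FPKM + 1) scale, Ddr1 was most like AABR07044273.1, Ascc1 and Clip1 (r between 0.991 and 0.997). Ddr2 was most like Camk2n1, Des and Pard6g (r between 0.990 and 0.998). Des, which encodes desmin of muscle cells, was at 18.6, 12.1 and 15.1 FPKM in controls and 11.2, 12.3 and 21.6 FPKM in PF models 1 to 3, highest in PF model 3 as Ddr2 was. Mrc2 was most like Sike1, Adamtsl5 and Cep350 (r = 0.98 for each). Between 17 and 36 gene names reached r of 0.95 or more with each of these 3 members.

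None of the 8 fibrillar and 7 non-fibrillar collagen chains tested, ligands of these receptors, met the call rule. Each count of an unadjusted limma p of at most 0.05 in the lists of ligands, receptors and partners stands against the 4.91% of all gene names that passed this test. Of 9 fibrillar chains 8 were tested, as Col2a1 was above 0 in too few libraries, and 1 passed the unadjusted limma test, none with an adjusted p below 0.05. This was Col3a1, the chain of type III collagen, at 174.0, 177.9 and 153.6 FPKM in controls 1 to 3 and at 188.5, 203.8 and 232.5 FPKM in PF models 1 to 3. All PF model samples lay above all controls, with a log2(FPKM + 1) difference of 0.30 (limma p of 0.0366, adjusted p = 0.933). Col1a1 was at 63.0 ± 3.18 and 72.4 ± 12.2 FPKM, Col1a2 at 30.6 ± 3.47 and 36.7 ± 11.01 FPKM, and Col5a2 at 34.9 ± 4.88 and 36.2 ± 2.22 FPKM in control and PF model samples (SD, n = 3). These 3 overlapped between the groups. The 9 chains summed to between 286.2 and 324.9 FPKM in control and to between 330.6 and 415.5 FPKM in PF model samples, the highest in PF model 3. Col3a1 was the largest part of each sum, and every other fibrillar chain tested overlapped between the groups. The sums are therefore not separate from the Col3a1 values.

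The non-fibrillar chains, which include basement membrane and beaded filament collagens, gave no call. Of 8 listed 7 were tested (Col6a3 has no entry), and none passed the unadjusted limma test. Col4a2 was at 69.0 ± 13.5 FPKM in control and 76.0 ± 6.99 FPKM in PF model samples (SD, n = 3). Col6a2 was at 52.7 ± 10.6 and 61.6 ± 6.18 FPKM (SD, n = 3). The median difference of the 7 was 0.16 on the log2(FPKM + 1) scale, and that of the 8 fibrillar chains 0.069.

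Other collagen receptors that are not integrins were examined from a list of 7, of which 6 were tested (Cd36 has no entry). Cd44, a receptor for hyaluronan that also binds collagen, was at 26.1, 25.8 and 25.6 FPKM in controls 1 to 3 and at 32.5, 28.8 and 28.3 FPKM in PF models 1 to 3. All PF model samples were higher, and Cd44 was the single gene of this list with an unadjusted p under the threshold (difference 0.20 on the log2(FPKM + 1) scale, limma p of 0.0382, adjusted p = 0.933). Mrc1, the macrophage mannose receptor and a relative of Mrc2, was at 12.0 ± 2.39 and 15.0 ± 1.58 FPKM, with overlapping groups. Adgrg6 was at 14.8 ± 2.02 and 15.3 ± 2.38 FPKM and Adgrg1 at 5.22 ± 0.440 and 4.97 ± 1.22 FPKM in control and PF model samples (SD, n = 3). No gene of the list met the call rule.

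Downstream of the receptors few genes passed. Of 10 genes for DDR signalling and its targets, 1 passed the unadjusted limma test. It was Src, a kinase that phosphorylates the DDRs, named after its values were seen, at 6.09 ± 0.288 FPKM in control and 7.30 ± 0.266 FPKM in PF model samples (SD, n = 3), with limma p of 0.0444 and adjusted p = 0.933. Pik3r1, the most abundant of the list, was at 49.6 ± 1.13 and 52.7 ± 5.98 FPKM (SD, n = 3), and Shc1, an adaptor that binds DDR1, at 21.8 ± 0.831 and 23.2 ± 1.04 FPKM. Nck2 was at 22.0 ± 0.189 and 21.6 ± 0.842 FPKM, and Adam10 at 21.8 ± 0.871 and 20.1 ± 0.916 FPKM (SD, n = 3). Adam10 and Lox, the latter named after its values were seen, were lower in every PF model sample than in any control sample. So were 5.87% of all gene names tested. Src was higher in every PF model sample than in any control sample. The median difference of the list was -0.028, with 4 point estimates higher in PF model samples and 6 lower.

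None of the 10 Endo180 partners, the urokinase system with collagenases and lysosomal proteases, passed the unadjusted limma test. The point estimates on the log2(FPKM + 1) scale were higher in PF model samples for 9 of them. The median difference was 0.15, beside -0.0072 over all gene names. Among these 9, Mmp13 and Ctsk were at 0 FPKM in some libraries. Mmp14 differed by only 0.013, and its mean FPKM was slightly lower in PF model samples. Whether 9 of 10 exceeds the share over all gene names was not tested. Ctsb, which encodes the lysosomal protease cathepsin B, was at 115.8 ± 5.33 FPKM in control and 128.5 ± 20.3 FPKM in PF model samples, and Mmp2, a gelatinase, at 34.2 ± 2.08 and 38.5 ± 5.35 FPKM (SD, n = 3). Ctsl, cathepsin L, was the exception on that scale, at 34.0 ± 0.909 and 31.7 ± 1.03 FPKM (SD, n = 3). It was lower in every PF model sample than in any control sample (limma p of 0.182), as were 5.87% of all gene names tested.

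For the platelet receptor without an entry, the surrounding pathway was measured. Of 11 genes of GPVI signalling, 1 passed the unadjusted limma test and none met the call rule. Vav3, a guanine nucleotide exchange factor, was at 44.0, 40.8 and 44.8 FPKM in controls 1 to 3 and at 36.3, 34.2 and 35.3 FPKM in PF models 1 to 3. The groups were well apart, with a log2(FPKM + 1) difference of -0.28 (limma p of 0.00569, adjusted p = 0.933). Fcer1g, the Fc receptor γ chain through which GPVI signals, was at 40.1 ± 4.56 and 36.8 ± 4.25 FPKM, and the kinase Lyn at 84.1 ± 4.83 and 84.4 ± 4.87 FPKM (SD, n = 3). These genes are used by leukocytes too.

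Markers of platelets and megakaryocytes were detected in both groups. All 10 platelet and megakaryocyte markers had an entry and were tested, and they summed to between 26.4 and 35.0 FPKM in control and to between 25.5 and 35.6 FPKM in PF model samples. Itgb3 and Pf4 made up most of these sums, each with a mean of 10.9 FPKM over the libraries. Ppbp was at 0 FPKM in control 2 and in PF model 2. Gp1ba, a subunit of the von Willebrand factor receptor, was the 1 marker with an unadjusted limma p under the threshold (p of 0.0446), at 1.62 ± 0.0587 and 1.21 ± 0.105 FPKM. Of the 10 fibroblast markers none passed, and they summed to between 245.7 and 263.7 FPKM in control and to between 259.0 and 286.0 FPKM in PF model samples. None of the 10 epithelial markers passed either. The heart marker Nppa was at 0.107, 0 and 0 FPKM in controls 1 to 3 and at 0.167, 0.154 and 0.150 FPKM in PF models 1 to 3. The PF model samples alone met the filter for it, so its call is not read as a result.

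**Figure D4:**
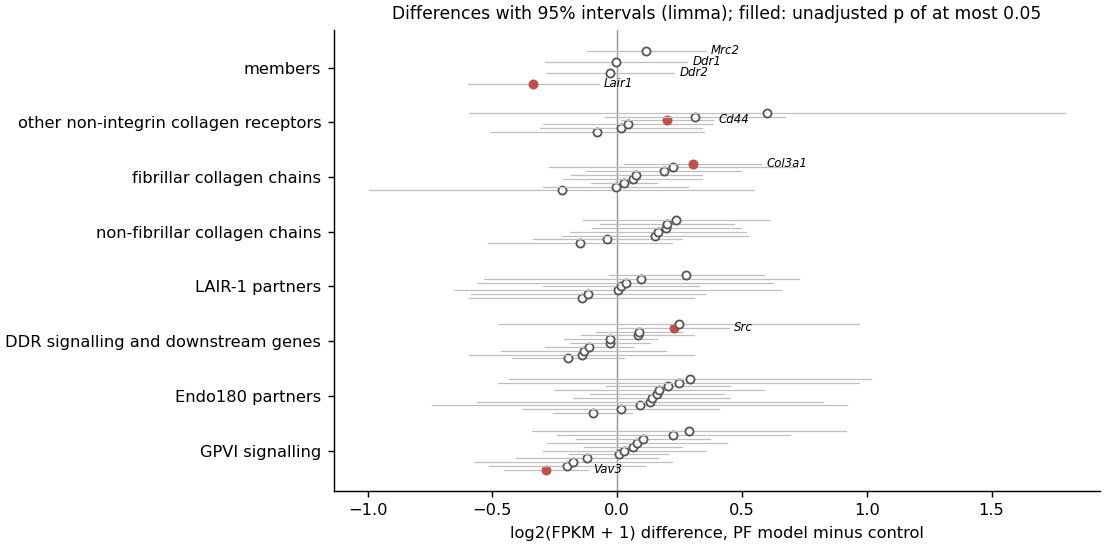
Differences on the log2(FPKM + 1) scale, PF model minus control, with 95% intervals from limma (horizontal axis), for the 4 measured members and the tested genes of 7 lists of ligands, receptors and partners. Filled red points have an unadjusted p of at most 0.05: Lair1 and Vav3 on the negative side and Cd44, Col3a1 and Src on the positive side.

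Circular RNAs of the members were at the limit of detection. The table of back-splice reads holds 2 circRNAs of these genes. A circRNA of 4 exons of Ddr2 (chr13:88342155-88344886) had 1 read in PF model 2, and a circRNA of 3 exons of Mrc2 (chr10:93562262-93564054) had 1 read in PF model 3, with 0 reads in all other libraries. Of all 5216 circRNAs 56.3% had a single read, and the libraries held between 2037 and 2964 back-splice reads. At this depth no comparison between the groups was possible.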

How the data were processed

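Lung RNA of 3 control and 3 PF model rats was grouped by the sample type in the labels. After trimming by Cutadapt, the authors aligned reads by means of Bowtie2 and Tophat2 (the submitters' processing notes also name HISAT2), ran StringTie on every library, merged the results and deposited FPKM per transcript from StringTie and Ballgown. They also deposited per-base coverage, a signal without correction for library size, and raw counts of back-splice reads per circRNA called with CIRCexplorer. Versions, the genome build and how the estimation treated strand are not given in the sources used here.

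FPKM were summed per gene name over its transcripts. Features above 0 FPKM in 3 or more of the 6 samples were fitted over the whole table, on log2(FPKM + 1), with the trended fit of limma 3.58.1 under R 4.3.3. A feature was called where the unadjusted p did not exceed 0.05 and the group mean FPKM differed by 1 or more log2 units, and p was also adjusted over all features by the Benjamini-Hochberg method. The script was tested on simulated data. Single values were compared with exact two-sided permutation tests over all 20 regroupings. Reads were estimated as coverage times length over 150, so a read pair counts as 2. Summed over all transcripts they came to between 35778631 and 41112682 per library, which is not the number sequenced. Sequences came from RefSeq tables (GRCr8) and the study's primer list. Python 3.11.15 with pandas 2.3.3, numpy 2.4.6, scipy 1.17.1 and matplotlib 3.10.9 was used.

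The member genes and gene lists were chosen with earlier results of these data known. Genes were named by a rule: all members, member transcripts holding at least 10% of their gene, up to 4 genes per list by mean FPKM, called genes, and the 3 gene names most like each member. Exceptions are stated, and the isoform details, the neighbours of Lair1 and the ratios were examined after values were seen. Alternatives were another pseudocount, filters, scalings, transcript combinations, a replicate block and the omission of single samples. The miRNA libraries and the SRPBM columns were not used here.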

Additional observations from a re-analysis of the deposited data

How the results depend on the processing

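Lair1 was lower in PF model samples under each of the 15 alternatives run for it. Its log2 differences lay between -0.42 and -0.25 when single samples were left out, and at -1.22 with a pseudocount of 0.1 (limma p of 0.0327). As the groups do not overlap, leaving out a sample could not reverse this direction. Lair1 has a single transcript, so the transcript combinations left its difference at -0.34. The shared direction is therefore not separate evidence. The direction of Ddr1 and Ddr2, both close to 0, was not stable. Ddr1 was at 0.075 after rescaling to TPM, 0.020 with upper quartile scaling, 0.022 with a sum weighted by length, 0.40 with annotated transcripts only and between -0.058 and 0.085 with single samples left out. Ddr2 was at 0.051 after rescaling to TPM and between -0.12 and 0.025 with single samples left out. Mrc2 kept its direction under its 16 alternatives. Over the 62 alternatives of the 4 genes the lowest adjusted p was 0.820. With single samples left out, MSTRG.6738.1 ranged from -0.013 to 0.33, ENSRNOT00000055137 from -0.23 to 0.50 and MSTRG.21279.3 from -0.64 to 0.73, and ENSRNOT00000089417 met the call rule without PF model 2 (0.88, limma p of 0.0318). Fitted among transcripts, Lair1 had a limma p of 0.0540 with a pseudocount of 0.1.

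Calls over all gene names numbered 83 with a mean of at least 1 FPKM and 519 with annotated transcripts only, against 298, and calls over transcripts 1086 with a mean of at least 1 FPKM, against 1934. The causes of these shifts were not tested. Lair1 could not be tested under the filter on mean FPKM, nor Ddr2 with annotated transcripts only. Using sense spliced and annotated transcripts alone was added after seeing the data.

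Samples with the same replicate number did not clearly deviate together (r of 0.065, 0.028 and -0.078 between same-numbered control and PF model samples). Not every sample was closest to its own number. With 3 samples per group, these r values cannot settle whether the numbers pair the rats. A fit with the replicate block gave 312 calls over gene names, 0 of them with an adjusted p below 0.05, and a limma p of 0.00373 for Lair1. Lair1 had the fewest reads of the 4 genes, with 1.51 to 28.8 estimated reads per library.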
